A study of Mus musculus with 12 samples.

Results

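The genes described here are 6 long noncoding RNAs (lncRNAs) known for nuclear bodies, chromatin or growth: Malat1, Neat1, Tug1, Miat, Pvt1 and Dancr. They were taken by symbol from a table of 51467 genes, of which 11563 are annotated as lncRNA genes, and all 6 were found. The comparison was between mouse embryonic stem cells (ESCs) with a knockout of Dgcr8 (Dgcr8 KO) and wild-type cells. In the KO, Malat1 and Neat1 were higher and Tug1 was lower, in both newly made and total RNA. The sequence counted as Dancr was also lower in both, but it is unspliced and downstream sequence and not the spliced lncRNA. Pvt1 was higher in newly made RNA by the main test, a call that was lost in 2 of 16 alternative fits. Miat lay at or under 3 counts in 4 of the 12 libraries and was the only member that failed the filter on low values.

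The wild-type cells were the V6.5 ESC line and the Dgcr8 KO cells were an ESC line made earlier in the same laboratory, so the genotype rests on 1 line each. Both were grown with LIF, 2i inhibitors and serum and were given 500 uM 4-thiouridine (4sU), a uridine analogue, for 30 min. Each RNA sample was divided between a pull-down of the 4sU-labelled RNA, which measures nascent transcription, and rRNA-depleted total RNA, with 3 replicates in each of the 4 groups. Nothing in the sources used here says whether replicates were separate cultures, so p-values measure only the spread between these samples, which may be technical.

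Total counts per library ran from 4593914 to 9295245. Dgcr8, the partner of Drosha in the first cut of primary microRNA transcripts, stood at 92.5 to 111.1 CPM (counts in each 1000000 of the library) in wild-type total RNA and 32.0 to 34.1 CPM in KO total RNA. In 4sU RNA its range was 107.3 to 118.2 CPM in wild-type and 71.2 to 86.8 CPM in the KO. The groups did not overlap, and some Dgcr8 RNA remained in the KO. All 6 ESC marker genes (Pou5f1, Sox2, Nanog, Esrrb, Zfp42, Dppa5a) had over 3 counts in every library, with a summed level of 3549 to 5156 CPM. That sum was higher in the KO without overlap in 4sU RNA, at 4684.5 to 5156 CPM against 3959 to 4049 CPM in wild-type. In total RNA the ESC sums overlapped, at 3549 to 3683 CPM in wild-type and 3663 to 3719 CPM in KO libraries. These sums join opposite changes. By a limma adjusted p under 0.05, Pou5f1, Sox2 and Zfp42 were higher in KO total RNA and Nanog, Esrrb and Dppa5a were lower. In 4sU RNA 5 were higher and 1, Dppa5a, was lower. Of all genes tested, 27.2% were higher and 36.7% lower in total RNA, and 28.3% and 28.0% in 4sU RNA. With edgeR, Pou5f1 missed the threshold in 4sU RNA (adjusted p = 0.0557). The 6 fibroblast markers summed in total RNA to 5.11 to 8.12 CPM in wild-type and 1.24 to 1.73 CPM in KO libraries. Their 4sU sums overlapped, at 2.25 to 4.80 and 0.761 to 2.48 CPM, and Postn was at 0 throughout. In total RNA the 5 primitive endoderm markers summed to 8.43 to 10.4 CPM in wild-type and 6.66 to 8.08 CPM in KO libraries, and the 4 trophoblast markers to 11.2 to 13.7 and 8.30 to 10.1 CPM. In 4sU RNA the endoderm sums overlapped, at 15.9 to 17.4 and 15.8 to 16.4 CPM, and the trophoblast sums were 37.3 to 42.2 CPM in wild-type and 28.4 to 35.3 CPM in KO libraries. The fibroblast, endoderm and trophoblast sums were thus lower in the KO without overlap in total RNA, and the trophoblast sum also in 4sU RNA. Of single genes tested, 68.8% in total and 59.0% in 4sU RNA were without overlap in either direction. Trophoblast Cdx2 had higher KO means, at 0.418 and 0.469 CPM in total and 0.666 and 1.79 CPM in 4sU RNA. Eomes, Elf5 and Gata3 had lower KO means in both. In 4sU RNA Thy1, Col3a1 and Sox7 had higher KO means, and Col1a1 and Col5a2 lower ones. Gata4, the only endoderm marker that passed the filter, had a higher mean in the KO. It stood at 4.92 CPM in wild-type and 6.48 CPM in KO total RNA (limma adjusted p = 0.0990). In 4sU RNA Gata4 stood at 10.3 and 14.6 CPM (limma adjusted p = 0.0058). Gata6, Sox17, Sox7 and Dab2 had lower means in KO total RNA. The part of these markers in the results below was not tested. In such bulk RNA, fewer cells that express a gene and less RNA of it per cell cannot be told apart.

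An lncRNA is transcribed and often spliced like an mRNA but is not translated into a protein. Malat1 is an abundant nuclear RNA of the splicing speckles, whose 3′ end is made by RNase P and which carries no poly(A) tail. Neat1 is the scaffold of the paraspeckles, nuclear bodies built on its long isoform. Tug1 and Miat (also called Gomafu) are nuclear-enriched RNAs described mainly in the nervous system, Pvt1 is the neighbour of the growth gene Myc, and Dancr is best known for restraining differentiation of progenitor cells. In ESCs the microRNAs lost without Dgcr8 are dominated by the ESCC family, members of the miR-290 and miR-302 clusters that share a seed.

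Malat1 (mm10, chr19:5795690-5802672) and Neat1 (chr19:5824708-5845478) lie next to each other on the minus strand and are each annotated as 1 unspliced block, of 6983 and 20771 bases. Tug1 (chr11:3639785-3648812, minus strand) has 6769 exonic bases in 3 blocks and Miat (chr5:112213228-112229395, minus strand) 9163 bases in 7 blocks. Pvt1 (chr15:62038047-62378096, plus strand) has 5537 exonic bases spread over 14 blocks. Annotated short RNA genes on the same strand overlap 1.23% of Malat1, 9.57% of Tug1 and shares in between of Neat1, Miat and Pvt1, and reads that fall on 2 genes were left uncounted. The long and short isoforms of Neat1, annotated at 20771 and 3004 bases from the same start, are pooled in its count.

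Dancr needs a separate reading. The table models it as 1 unspliced block of 2347 bases (chr5:74093060-74095406, plus strand). A second gene of the table, ENSMUSG00000053656.6, has exactly the 3 exons of the spliced Dancr transcript, at chr5:74093077-74093139, chr5:74093358-74093419 and chr5:74093888-74094337, 575 bases in all. Both that gene and the small nucleolar RNA gene Snora26, of 121 bases in the same block, had 0 counts in all 12 libraries. The Dancr counts therefore come from the 1651 bases shared with neither, which are mostly the introns and the sequence downstream of the last spliced exon. Wherever Dancr is named below, the value is that of this unspliced and downstream sequence and not of the spliced lncRNA.

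To see whether the RNAs hold matches to the microRNAs that the KO lacks, the ESCC seed was searched in the longest GENCODE M21 transcript of each. The mature sequences (RefSeq, GRCm38.p6) are shown because they define the search, with bases 2 to 8, the seed, in capitals.
mmu-miR-294-3p: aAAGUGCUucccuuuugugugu
mmu-miR-302d-3p: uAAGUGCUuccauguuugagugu
mmu-miR-291b-3p: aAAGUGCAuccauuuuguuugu
The first and second share all 7 seed bases, and the third shares the first 6. The searched sites were AGCACTT, which pairs with bases 2 to 8 of miR-294-3p, and GCACTTA, which pairs with bases 2 to 7 before an A. Malat1 held 1 site, Neat1 held 5 and Tug1 held 2, while Miat, Pvt1 and the unspliced Dancr transcript held 0. These are 0.143, 0.241 and 0.298 sites per 1000 bases for Malat1, Neat1 and Tug1. Over 3936 lncRNA genes whose longest transcript has at least 2000 bases, 32.3% held a site and the density was 0.132 per 1000 bases.

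The sites that follow, on the minus strand of GRCm38 and with the match in capitals, are those of Malat1 and Tug1 and, from Neat1, its longest match and the site most like that of Malat1.
Malat1 site 1, chr19:5802066-5802095: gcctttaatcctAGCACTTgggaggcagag
Neat1 site 3, chr19:5834223-5834252: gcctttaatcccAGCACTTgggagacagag
Neat1 site 4, chr19:5833757-5833786: gtggcccacagAGCACTTAtatgtggttac
Tug1 site 1, chr11:3644736-3644765: tcctctttttatAGCACTTtacaggttcaa
Tug1 site 2, chr11:3644718-3644747: ttacaggttcaaAGCACTTtcatatacatg
The Malat1 site and the third Neat1 site lie in windows that are identical at 28 of 30 bases, and these letters are those of the B1 repeat, a family of short interspersed elements common in the mouse genome. The fourth Neat1 site is its only match of 8 bases. All 5 Neat1 sites begin at or beyond base 8219 of the long isoform, outside the 3004-base isoform. The Tug1 sites start 18 bases apart. A match is a description of the sequence and not a sign of binding.

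Whether these sites bear on the levels was not tested. The values of each gene follow, and the plot of CPM by library shows them all.

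**Figure D1:**
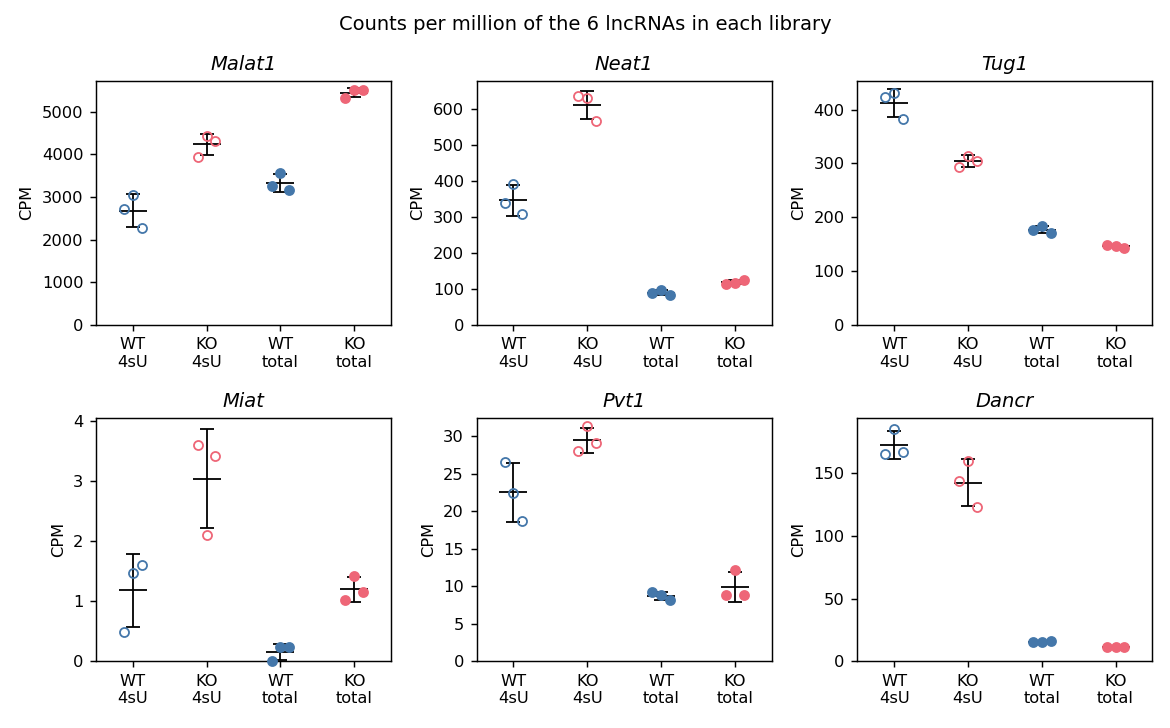
Counts scaled to CPM (scaled by TMM factors, y axis from 0) of each lncRNA in the 12 libraries, with open points for 4sU and filled points for total RNA, blue for wild-type (WT) and red for Dgcr8 KO, and a bar for the mean ± SD of 3 replicates. Malat1 and Neat1 are higher in the KO in both kinds of RNA, Tug1 and Dancr are lower, and Miat lies under 4 CPM throughout.

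Malat1 was the most abundant of the 6 in every group. Its total RNA stood at 3254, 3560.5 and 3163 CPM in the wild-type libraries and at 5333, 5512 and 5521 CPM in the KO libraries. The KO libraries were all above the wild-type libraries. The log2 change was 0.71 (SE 0.0546, 95% interval 0.60 to 0.83, limma adjusted p = 5.42e-13), a fold of 1.64. In 4sU RNA Malat1 stood at 2726, 3051 and 2265 CPM in wild-type and 3952, 4443 and 4317.5 CPM in KO libraries, again without overlap. The log2 change of nascent Malat1 was 0.67 (SE 0.0603, limma adjusted p = 4.44e-11), close to that of its total RNA. Its ratio of total to 4sU signal changed by 0.04 on the log2 scale with an interval of -0.12 to 0.21 (limma adjusted p = 0.794). That interval holds changes of up to 1.15-fold, and its sign turned to -0.0049 without wild-type replicate 2.

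Neat1 is the tested member whose total and nascent changes differed past the threshold of the interaction test. Nascent Neat1 stood at 338.1, 392.4 and 307.8 CPM in wild-type and 636.7, 630.1 and 566.9 CPM in KO libraries, with every KO value above every wild-type value. The log2 change was 0.83 (SE 0.0635, limma adjusted p = 1.21e-12), a fold of 1.78. In total RNA it stood at 88.1, 97.2 and 83.2 CPM in wild-type and 112.9, 117.0 and 123.6 CPM in KO libraries. These groups did not overlap either, but the log2 change was smaller, 0.40 (SE 0.0801, limma adjusted p = 6.70e-05), a fold of 1.32. The ratio of total to 4sU signal fell by 0.43 on the log2 scale (interval -0.64 to -0.22, limma adjusted p = 0.0029). Over all genes tested the median change of this ratio was -0.09. The Neat1 change was -0.34 both with DESeq2 (adjusted p = 0.0426) and in limma with relative log expression factors (adjusted p = 0.0270). The long isoform runs past the annotated end of the short one, so a shift between isoforms cannot be told apart from a change of both in these counts.

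Tug1 moved the other way. Nascent Tug1 stood at 423.3, 431.7 and 383.5 CPM in wild-type and 293.9, 314.8 and 304.8 CPM in KO libraries. The log2 change was -0.44 (SE 0.0528, limma adjusted p = 2.36e-08), a fold of 0.739. Total Tug1 stood at 176.9, 183.4 and 169.9 CPM in wild-type and 147.6, 146.1 and 143.6 CPM in KO libraries, and its log2 change was -0.28 (SE 0.0573, limma adjusted p = 9.65e-05). The groups were apart in both kinds of RNA. The total to 4sU ratio of Tug1 changed by 0.16 on the log2 scale (interval 0.0021 to 0.32, limma adjusted p = 0.171). It passed the threshold with DESeq2 (0.25, adjusted p = 0.0317), with relative log expression factors (0.25, adjusted p = 0.0314) and with upper-quartile factors (0.23, adjusted p = 0.0450), so its call depends on the scaling.

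Dancr, in the sense given above, was also lower in the KO. In total RNA it stood at 15.3, 15.5 and 16.3 CPM in wild-type and 11.6, 11.4 and 11.4 CPM in KO libraries, without overlap. The log2 change was -0.45 (SE 0.150, limma adjusted p = 0.0096), and with no filter beyond 1 count it was -0.42 (adjusted p = 0.0760). In 4sU RNA it stood at 165.7, 185.7 and 166.9 CPM in wild-type and 144.1, 160.2 and 123.0 CPM in KO libraries. The nascent log2 change was -0.28 (SE 0.0705, limma adjusted p = 0.0011), and without KO replicate 3, its lowest library, it was -0.16 (adjusted p = 0.0517). The total to 4sU ratio changed by -0.17 (interval -0.51 to 0.17, limma adjusted p = 0.552). That value was -0.08 without KO replicate 2 and -0.27 without KO replicate 3.

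Pvt1 had few counts, 59 to 165 in a library, but reached 3 CPM in all 12. Its nascent RNA stood at 26.5, 22.4 and 18.7 CPM in wild-type and 28.0, 31.3 and 29.1 CPM in KO libraries, which do not overlap but nearly touch. The log2 change was 0.39 (SE 0.126, limma adjusted p = 0.0086). It missed the threshold without wild-type replicate 3, the lowest library (0.25, adjusted p = 0.104), and with DESeq2 (0.33, adjusted p = 0.0711). Total Pvt1 stood at 9.21, 8.90 and 8.13 CPM in wild-type and 8.80, 12.2 and 8.80 CPM in KO libraries, where the groups overlap. Its change of 0.17 had an interval of -0.17 to 0.52 (limma adjusted p = 0.384), and that of its ratio, -0.22, one of -0.65 to 0.21 (limma adjusted p = 0.539). The total change ran from 0.02 without KO replicate 2, its highest library, to 0.27 without KO replicate 1, and the ratio change from -0.34 to -0.15 over the left-out replicates. These values rest on 59 to 94 counts in a total library.

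Miat was the rarest. Its counts in total RNA were 0, 2 and 2 in wild-type and 9, 11 and 8 in KO libraries. In 4sU RNA they were 3, 7 and 9 in wild-type and 18, 11 and 18 in KO libraries. The 3 wild-type total libraries and wild-type 4sU replicate 1 are the 4 libraries at or under 3 counts, and a count of 0 allows up to 0.468 CPM in the library that has it. No other member fell to 3 counts in any library, the next lowest being Pvt1 at 59. Over the pooled counts, 28 against 4, total Miat was 6.92-fold higher in the KO, with an exact interval of 2.42 to 27.1 that covers counting error only. In 4sU RNA, 47 against 19, it was 2.65-fold higher with an interval of 1.53 to 4.79. The CPM values of the genotypes did not overlap in either kind of RNA, and an exact two-sided permutation test over the 3 and 3 libraries gave p = 0.1 for each, the smallest that this design allows.

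Miat reached 3 CPM in only 2 libraries, so the model across all genes did not test it. Where genes of at least 1 count were kept, limma gave log2 changes of 2.79 in total (adjusted p = 0.00075) and 1.47 in nascent RNA (adjusted p = 0.0176). The edgeR quasi-likelihood test over the same genes gave 2.70 (adjusted p = 0.00018) and 1.40 (adjusted p = 0.0048). The change of its ratio missed the threshold in both (adjusted p = 0.416 and 0.539).

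Of the 5 members tested, 0 were called in total RNA at an adjusted p under 0.05 with a log2 change over 1 in size, where 17.2% of the 14033 genes tested were called. By the adjusted p alone, 2 were higher, Malat1 and Neat1, against 27.2% of all genes, and 2 were lower, Tug1 and Dancr, against 36.7%. In 4 of 5 the KO and wild-type libraries did not overlap, as in 68.8% of all genes. In nascent RNA 0 were called with the limit on size, against 14.8% of all genes. By the adjusted p alone 3 were higher (28.3% of all genes) and 2 were lower (28.0%), and all 5 were without overlap (59.0%). For the ratio of total to 4sU signal, 0 were called with the limit on size (1.76% of all genes), 0 were higher (5.02%) and 1, Neat1, was lower (11.1%) by the adjusted p alone. The ratios of the genotypes did not overlap for Neat1 and Tug1 (31.4% of all genes). With edgeR and by the adjusted p alone, the same members passed in each comparison. Shares this near to the background are no result about the 6 as a set.

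**Figure D2:**
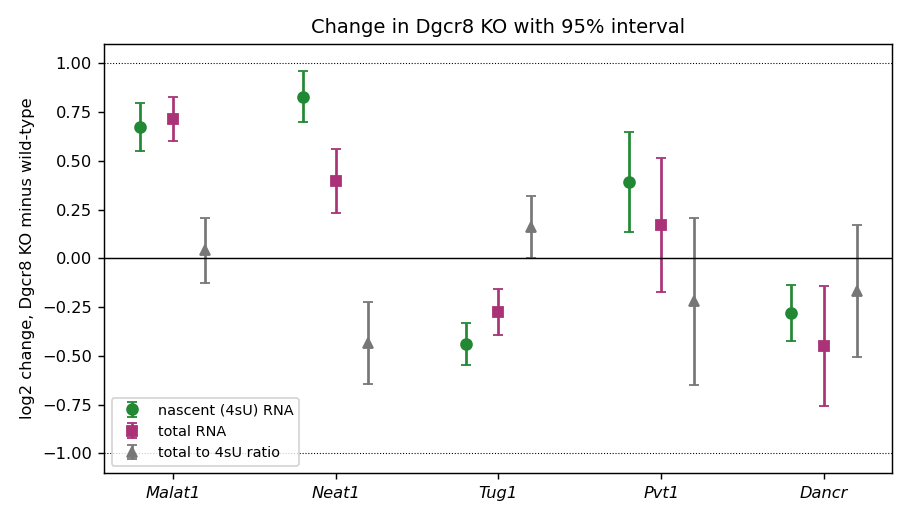
Log2 change in Dgcr8 KO against wild-type (y axis) of the 5 tested lncRNAs in nascent RNA (green circles), total RNA (purple squares) and the ratio of total to 4sU signal (grey triangles), with 95% intervals from limma and dotted lines at 1 and -1. No interval reaches a log2 change of 1, and among the ratios the interval of Neat1, -0.64 to -0.22, lies farthest from 0.

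The ratio of total to 4sU signal within a genotype served in the study as a measure of stability, since a stable RNA is abundant relative to its synthesis. Here it was taken for each pair of libraries of the same number and set against the median of all genes tested. In wild-type cells the ratio of Malat1 was 0.18, 0.12 and 0.40 on the log2 scale. This is at the level of mRNAs: 50.3% of the 11884 protein-coding genes tested and 98.1% of the 1508 lncRNA genes tested had a lower mean ratio. Neat1, its neighbour, had ratios of -2.02, -2.12 and -1.97, and its mean was above 75.5% of lncRNA genes and 4.25% of protein-coding genes. Tug1 had ratios of -1.34, -1.34 and -1.26 and Pvt1 of -1.60, -1.43 and -1.28, with means above 88.1% and 86.1% of lncRNA genes and above 11.1% and 9.64% of protein-coding genes respectively.

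The sequence counted as Dancr had the lowest ratios of the 5, at -3.51, -3.68 and -3.44, above only 17.97% of lncRNA genes and 0.370% of protein-coding genes. Its 4sU level was thus 172.8 CPM beside 15.7 CPM in total RNA. The middle 50% of lncRNA genes ran from -3.34 to -2.06 and that of protein-coding genes from -0.59 to 0.90. In the KO, the mean ratios were 0.37 ± 0.06 for Malat1, -2.37 ± 0.17 for Neat1, -1.06 ± 0.05 for Tug1, -1.57 ± 0.19 for Pvt1 and -3.61 ± 0.20 for Dancr (SD, n = 3). The order of the 5 was the same in both genotypes. The share of uridine in the longest transcripts, on which 4sU capture can depend, ran from 23.2% in Miat to 32.5% in Tug1, with 28.9% in Malat1 and 30.0% in Neat1, and its part in the ratios was not tested.

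**Figure D3:**
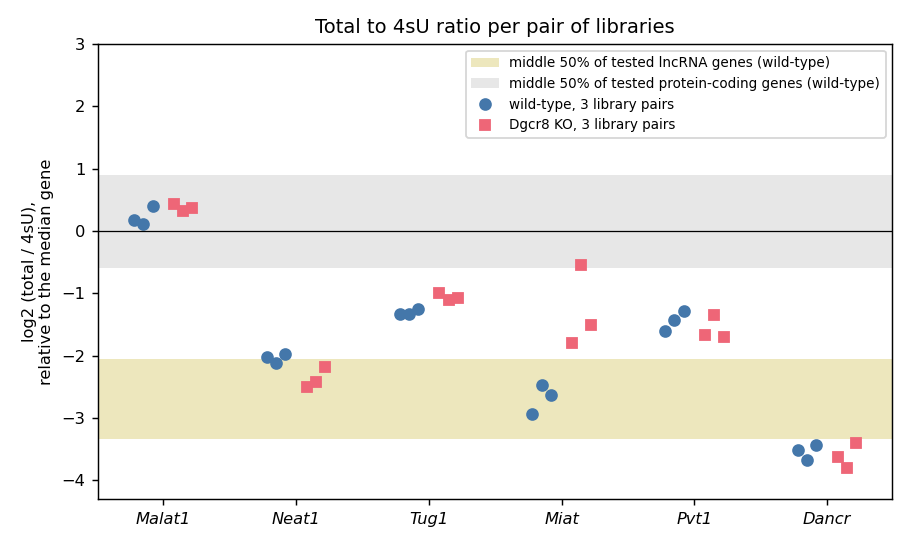
Log2 ratio of total to 4sU signal (y axis, 0 is the median of all genes tested) for each pair of libraries, blue circles for wild-type and red squares for Dgcr8 KO, with bands for the middle 50% of tested lncRNA genes (yellow) and protein-coding genes (grey) in wild-type cells. Malat1 lies inside the protein-coding band, Tug1 and Pvt1 between the bands, and Dancr below the lncRNA band; the Miat points rest on 0 to 18 counts.

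Levels can be compared between genes only per length, as CPM per kilobase (RPKM). In wild-type total RNA the order was Malat1 at 476.3 ± 29.8, Tug1 at 26.1 ± 1.00, Dancr at 6.68 ± 0.219, Neat1 at 4.31 ± 0.342, Pvt1 at 1.58 ± 0.1002 and Miat at 0.0173 ± 0.0150 RPKM (SD, n = 3). Malat1 ranked 2 among the 1508 lncRNA genes tested in this group and 1 in KO total RNA. In KO total RNA the order was Malat1 at 781.2, Tug1 at 21.5, Neat1 at 5.67, Dancr at 4.89, Pvt1 at 1.79 and Miat at 0.131 RPKM. Neat1 and Dancr thus changed places, but over the 1651 bases from which Dancr can be counted, its level was 6.95 RPKM in the KO and the order was that of the wild-type.

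In wild-type 4sU RNA Dancr, at 73.6 ± 4.79 RPKM, stood above Tug1, at 61.0 ± 3.80, and Malat1 led with 383.8 ± 56.6 RPKM (SD, n = 3). Neat1 followed at 16.7, Pvt1 at 4.07 and Miat at 0.129 RPKM, and the order was the same in KO 4sU RNA. Between each member and the next in these orders, the ranges of the 3 libraries did not overlap. The closest were Neat1 and Dancr in KO total RNA, 1.16-fold apart, and Dancr and Tug1 in wild-type 4sU RNA, 1.21-fold apart. These gaps use all exonic bases. Over bases shared with no other gene, Dancr stood at 104.6 and Tug1 at 67.4 RPKM in wild-type 4sU RNA. On the same lengths Dancr stood at 9.50 RPKM in wild-type total RNA. With the longest transcript in place of the joined exons, Pvt1 rose to 2.64 RPKM in wild-type total RNA and kept its place.

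**Figure D4:**
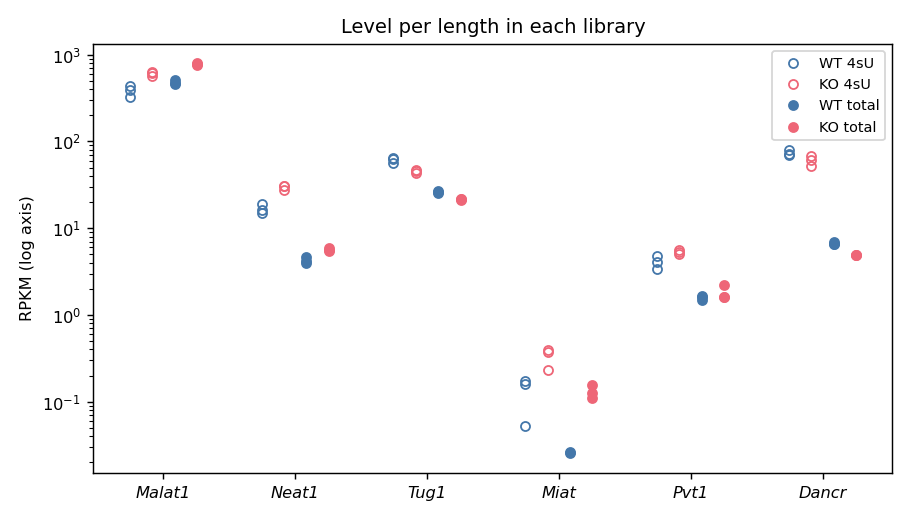
Level per length (RPKM, log axis) of each lncRNA in each library, open points for 4sU and filled points for total RNA, blue for wild-type (WT) and red for Dgcr8 KO. Malat1 lies above 300 RPKM in every library and Miat below 0.5 RPKM, and the wild-type total library in which Miat had 0 counts is left out because a log axis has no 0.

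Protein-coding genes next to the members were read in the same fit. Frmd8, which lies 4224 bases beyond Neat1 and supports the protease ADAM17 at the cell surface, had a nascent change of -0.07 (limma adjusted p = 0.560) and fell in total RNA by 0.36 (adjusted p = 3.10e-05). Morc2a, a chromatin ATPase on the opposite strand 682 bases from Tug1, fell in total RNA by 0.32 (limma adjusted p = 5.31e-06), with a nascent change of -0.14 (adjusted p = 0.0748). Smtn, a smooth-muscle cytoskeletal protein 100493 bases on the other side of Tug1, was lower in total RNA by a log2 change of -1.23 (limma adjusted p = 6.44e-09) and in nascent RNA by -0.73 (adjusted p = 6.70e-05).

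Myc, 47673 bases before Pvt1, stood at 13.7, 11.9 and 16.2 CPM in wild-type 4sU RNA and 6.40, 8.58 and 7.04 CPM in KO 4sU RNA. Its nascent log2 change was -0.92 (limma adjusted p = 7.79e-05), in the direction opposite to that of Pvt1. In total RNA Myc was under 1 CPM in every library, and changed by -0.43 (SE 0.538, limma adjusted p = 0.501). Usp46, a deubiquitinase beside Dancr, rose in total RNA (log2 change 0.43, limma adjusted p = 7.96e-09) with a nascent change of 0.02 (adjusted p = 0.804). Rasl11b, a small GTPase on its other side, passed in neither (limma adjusted p = 0.197 and 0.756). The neighbours of Miat, Gm26897 and Cryba4, a lens crystallin, and Gsdmc, the gasdermin beyond Pvt1, had at most 1 count in any library.

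Nascent Malat1 and nascent Tug1 moved in opposite directions. Their promoters are set side by side as a description, from 250 bases before to 50 after the start (RefSeq, GRCm38.p6, minus strand). Whether the promoter sequences bear on the changes was not tested. Capitals mark the searched motifs on either strand. They were the TATA box searched as TATAAA, the CCAAT box by the 5 letters of its name, and the GC box searched as GGGCGG. The cAMP response element was searched by its core TGACG, and the E-box by the letters CACGTG.
Malat1 promoter, chr19:5802623-5802922: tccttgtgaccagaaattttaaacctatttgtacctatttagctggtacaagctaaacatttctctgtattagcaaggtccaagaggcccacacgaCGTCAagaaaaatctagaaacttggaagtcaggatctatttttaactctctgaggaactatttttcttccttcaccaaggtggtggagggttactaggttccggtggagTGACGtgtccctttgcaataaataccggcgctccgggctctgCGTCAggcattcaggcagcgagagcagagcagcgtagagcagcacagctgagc
Tug1 promoter, chr11:3648765-3649064: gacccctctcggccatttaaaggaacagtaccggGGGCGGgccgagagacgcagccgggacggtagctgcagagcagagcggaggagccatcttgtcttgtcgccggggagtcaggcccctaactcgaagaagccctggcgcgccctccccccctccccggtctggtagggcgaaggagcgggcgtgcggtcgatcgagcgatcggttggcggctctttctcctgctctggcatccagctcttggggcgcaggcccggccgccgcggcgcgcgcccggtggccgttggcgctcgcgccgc
The Malat1 promoter held 3 copies of TGACG or its reverse complement and none of the other motifs. Of 32851 promoters of this length, 20.8% hold TGACG in any number of copies. Its GC content was 47.0%, against a median of 52.7%. The Tug1 promoter held 1 GC box, as do 35.7% of promoters, with a GC content of 71.3% and 37 CpG dinucleotides against a median of 7. The promoter of Dancr, in turn, held 3 CCAAT boxes (in 37.4% of promoters), 1 GC box and 1 TGACG. The promoter of Miat held 1 GC box. The promoters of Neat1 and Pvt1 were not searched. None of the 4 searched held TATAAA (13.6%) or CACGTG (7.15%), which says only that these letters are not in the window.

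The genes whose level followed each member most closely were found by Pearson's r of log2 CPM over the 12 libraries, given as a description. The libraries share the contrast of 4sU and total RNA, which enters every r. Malat1 was most like Zdhhc20 (r = 0.990), a palmitoyltransferase, and Rab8b (r = 0.989), a small GTPase of membrane traffic. Neat1 was most like the pluripotency factor Sox2 (r = 0.996) and the noncoding gene 4933439C10Rik (r = 0.995). Tug1 followed the noncoding genes 6720427I07Rik and Gm42748 (r = 0.996 for both). Pvt1 followed Bend3, a DNA-binding repressor, and Zfp36l2, a factor of mRNA decay (r = 0.988 and 0.986). Dancr followed the chromatin reader Brd2 and the transcription factor Tbx3 (r = 0.999 for both). Among the members themselves, r was 0.975 for Neat1 with Pvt1 and 0.973 for Tug1 with Dancr, and it was -0.16 for Malat1 with Neat1.

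Genes of the bodies and enzymes in which Malat1 and Neat1 take part were read from lists. Of 11 paraspeckle protein genes, all tested, 8 were lower and 1 was higher in total RNA by the adjusted p of limma, with a median log2 change of -0.34 against -0.09 over all genes. The higher one, Nudt21 (limma adjusted p = 0.0495), missed the threshold with edgeR (adjusted p = 0.0528). In nascent RNA 9 were lower and 0 were higher, with a median of -0.36 against -0.02. Dazap1 and Hnrnph3, RNA-binding proteins with the largest total changes, fell by 0.54 and 0.53 in total RNA (limma adjusted p = 1.08e-10 and 5.30e-06). Sfpq, needed to form paraspeckles, and Nono, its partner, were picked after their values were seen. Sfpq stood at 517.9 CPM in wild-type and 366.9 CPM in KO total RNA (limma adjusted p = 9.46e-10), and Nono at 287.2 and 284.7 CPM (adjusted p = 0.818).

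All 10 speckle genes were lower in total and in nascent RNA by the adjusted p of limma, with median log2 changes of -0.35 and -0.31. Rnps1, a factor of the exon junction, fell by 0.79 in total RNA (limma adjusted p = 1.29e-08), and Srrm1, a splicing coactivator, by 0.42 (adjusted p = 9.90e-08). For neither list did any gene pass the log2 change of 1, and no ratio of total to 4sU signal passed the test. As given above, 36.7% of all genes were lower in total RNA and 28.0% in nascent RNA, and the lists were not tested against other genes.

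Of 11 genes of RNase P and RNase Z, which cut at the 3′ end of Malat1 and release a small tRNA-like RNA, 9 were lower and 1 was higher in total RNA, with a median log2 change of -0.45. In nascent RNA 6 were lower and 1 was higher, and 3 had a lower ratio, or 2 with edgeR. Over all genes, 36.7% were lower in total RNA, 28.0% in nascent RNA and 11.1% in the ratio. Rpp21, a protein subunit of RNase P, was the one called with the limit on size by limma (DESeq2 called 2), and stood at -1.30 in total RNA (SE 0.130, limma adjusted p = 2.73e-10). Others were picked after their values were seen. Rpp38, another subunit, was the one that was higher, at 12.6 CPM in wild-type and 24.8 CPM in KO total RNA (limma adjusted p = 9.28e-08). Rpph1, the RNA component, stood at 14453 CPM in wild-type and 9739 CPM in KO total RNA (limma adjusted p = 1.59e-08). Of 10 genes of the nuclear exosome and its adaptors, 8 were lower in total and 6 in nascent RNA, with 0 higher, against the same shares of all genes. Mphosph6, an exosome cofactor, fell by 0.71 and Dis3, a catalytic subunit, by 0.69 in total RNA (limma adjusted p = 1.07e-09 and 1.51e-11).

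**Figure D5:**
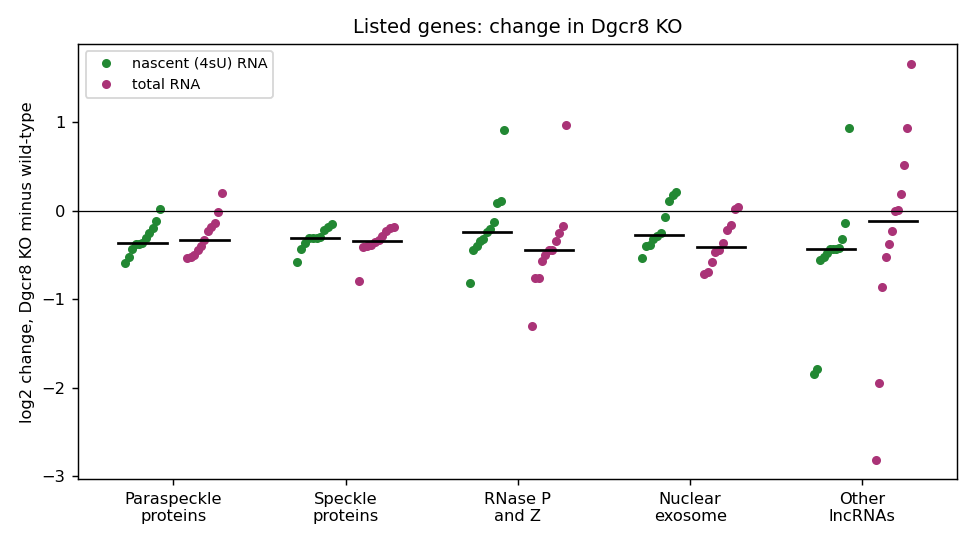
Log2 change in Dgcr8 KO against wild-type (y axis) of the tested genes of 5 lists, green for nascent and purple for total RNA, with a black line at each median. The protein lists lie mostly below 0, with medians of -0.24 to -0.45. The other lncRNAs run from -2.81 (H19, given with no test in the text) to 1.66 in total RNA.

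For comparison, 15 other well-known lncRNAs were listed, of which 14 were found and 12 tested. In total RNA 3 were higher and 6 lower by the adjusted p of limma, and in nascent RNA 1 and 9, with medians of -0.12 and -0.44 against -0.09 and -0.02 over all genes. Both counts of lower genes, and the medians, include H19, which is set apart below. The shares of all genes were 27.2% higher and 36.7% lower in total RNA, and 28.3% and 28.0% in nascent RNA. For the ratio of total to 4sU signal, 3 were higher and 1 was lower, against 5.02% and 11.1% of all genes. The lower one was Firre, named after its value was seen, at -0.43 (limma adjusted p = 0.0122), beside -0.43 for Neat1. Mir17hg, the host of the miR-17 to miR-92 cluster and so a direct substrate of the Dgcr8 complex, was higher in total RNA, by 1.66 (log2) with an SE of 0.107 (limma adjusted p = 9.48e-15). Its nascent change was -0.32, and its ratio of total to 4sU signal rose by 1.97 (limma adjusted p = 2.93e-12), the largest of the lists. Lncenc1, an ESC-enriched lncRNA, was at -1.95 in total and -1.84 in nascent RNA (limma adjusted p = 4.70e-23 and 2.83e-21). H19, an imprinted growth-linked lncRNA, passed the filter only through wild-type total RNA, where its mean was 4.48 CPM against 0.598 CPM in KO total RNA, so its difference is given with no test. Among the 6 members, only Miat passed a log2 change of 1, on its few counts and without the filter.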

How the data were processed

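RNA was measured in 12 libraries, 4sU and total RNA of wild-type and Dgcr8 KO ESCs with 3 replicates each. Groups were read from sample titles; a source name of the KO samples spells the gene otherwise, while titles and genotype agree on Dgcr8. The authors deposited raw counts, whole reads for each gene. According to the labels, the file header and the study's methods, they trimmed single-end 50-base reads with cutadapt 1.14, mapped them uniquely to mm10 with STAR 2.5.3a and counted them by strand with featureCounts 1.5.3 against GENCODE M14 basic without rRNA, leaving out reads on 2 genes. Gene symbols came from GENCODE M21 (51274 of 51467 identifiers matched). The table's 92 spike-in rows held 1 count and were left out.

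As in the study, genes with at least 3 CPM in at least 3 libraries were kept (14033) and fitted over all 12 libraries with limma 3.58.1 (voom weights, TMM factors of edgeR 4.0.16, R 4.3.3). The contrasts were KO against wild-type in total RNA, in 4sU RNA, and their difference, the change of the total to 4sU ratio. P-values are two-sided and Benjamini-Hochberg adjusted over all genes, at 0.05. CPM and RPKM use TMM-scaled totals, and the ratio per pair adds 0.5 counts. The scripts were tested on simulated data. Total counts of 4593914 to 9295245 set the precision, and intervals on counts cover counting error only, since reads were not collapsed by molecular identifiers.

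The members and the gene lists were chosen with earlier results of these data known. Named genes are the 6 members, their nearest protein-coding neighbours (1 is not reported here), the 2 genes most correlated with each tested member, and up to 4 genes of each list (the largest changes among those called, or else the 2 largest total changes). The numbers were not taken to pair the genotypes. Deviations of same-numbered libraries from their group means correlated by -0.07 to 0.08. The 4sU and total libraries of the same number share a divided RNA sample, yet theirs correlated by only 0.01 to 0.08. This check therefore cannot show whether the numbers pair the genotypes. A fit with the divided sample as a random block changed no call of a member. Alternatives were edgeR, DESeq2 1.42.0, other scalings and filters, blocks, other lengths and leaving out each replicate. Lengths without shared bases and edgeR without the filter were chosen after seeing the data.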

Additional observations from a re-analysis of the deposited data

Results flagged for a closer look

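Of the 5 lncRNAs tested, Neat1 was marked because the effect of the genotype differed between total and nascent RNA by the interaction term of the model. Its total RNA rose by less than its nascent RNA. The difference, the change of its total to 4sU ratio, was -0.43 on the log2 scale (limma adjusted p = 0.0029). Over all genes the median of that change was -0.09. The Neat1 ratio was lower in 3 of 3 KO pairs than in every wild-type pair. It passed the threshold in all 16 alternatives, with adjusted p from 0.00026 to 0.0426. Groups of 3 were too small for the check of single samples.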

How the results depend on the processing

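For the 5 tested members, the total and nascent changes of Malat1, Neat1 and Tug1 kept their direction and stayed past the adjusted threshold in each of the 16 alternatives. The total to 4sU ratio of Tug1, not past the threshold, passed it with DESeq2 (0.25), relative log expression factors (0.25) and upper-quartile factors (0.23), so 2 members in place of 1 passed for the ratio under each of these. The nascent change of Pvt1 lost the threshold with DESeq2 (0.33), and ran from 0.25 to 0.53 when each replicate was left out, losing it without wild-type replicate 3. The total change of Dancr lost it with no filter beyond 1 count (-0.42), and its nascent change, -0.36 to -0.16 over the left-out replicates, lost it without KO replicate 3. The change of the Malat1 ratio ran from -0.0049 to 0.12 over these and turned sign without wild-type replicate 2. With no filter, 1 member in place of 0, Miat, was called in total and 1 in nascent RNA, by limma and by edgeR. The Malat1 ratio in wild-type cells was -0.0404 where each of the 12 libraries had to reach 3 CPM and 0.80 where no gene was filtered out, and in the KO 0.09 and 0.96, since other genes then set the median it is taken from. The ratios of the other 4 tested members shifted the same ways, that of Tug1 in wild-type cells to -1.58 and -0.74. Other causes were not tested. Calls over all genes went from 2407 total and 2073 nascent to 4002 and 3801 with no filter (edgeR 3236 nascent), and to 1045 and 837, with 115 in place of 247 for the ratio, with 3 CPM in all libraries. The median total change of all genes was -0.09, and 0.01 with no filter. With the replicate block the Neat1 ratio changed by -0.43 (adjusted p = 0.00026), and the block changed no call of a member. Low counts limit Miat, total Pvt1 and total Dancr.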
